A study of Homo sapiens with 12 samples.

Results

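The genes described here are 43 targets of the transcription factor NRF2 and enzymes of antioxidant defence. They were taken by symbol from a list, chosen with earlier results of these data known, out of 19771 protein-coding gene rows. All 43 symbols were found, in 44 rows, because SOD2 has 2 overlapping gene identifiers. Their RNA was sequenced in TE-1, a human oesophageal cancer cell line, grown in DMEM with serum and cultured for 48 h after transfection. The groups were OE_IFI6 (cells given a vector that overexpresses IFI6, an interferon-induced gene), OE_control (the control of the overexpression vector), sh_IFI6 (cells given a hairpin vector against IFI6) and sh_control (the control of the hairpin vector), with 3 libraries each. All 12 libraries came from the same parental line, and all 4 groups were transfected; no untransfected cells were analysed here. Separate cultures are not stated for the 3 libraries of a group, so the p-values below cover the spread between libraries, and that spread may be technical.

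NRF2, encoded by NFE2L2, is held at a low level in unstressed cells by KEAP1, which bridges it to a ubiquitin ligase. Oxidants and electrophiles modify KEAP1, NRF2 then builds up, pairs with a small MAF protein such as MAFG and binds antioxidant response elements near genes for glutathione synthesis, the thioredoxin system, NADPH supply and quinone and haem breakdown. In oesophageal squamous cancers the pathway is known for activating mutations; whether TE-1 carries any was not examined here.

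The short version of the antioxidant response element core, TGACNNNGC on either strand, was searched in the 250 bases before the RefSeq transcription start (GRCh38.p14) of the 33 members with an entry. It was present in 7 of them (21.2%: GCLM, GPX2, GSTP1, KEAP1, ME1, PGD and TXNRD1), against 13.2% of 27305 genes with a promoter entry. The AP-1 letters TGACTCA occurred in 3 members (9.09%), among them GSTP1 and ME1, where they overlapped the antioxidant core, against 5.19% of all genes. A match is a description of letters and not a binding site. The windows below were picked after the tests. SELENOW and CAT fell in the overexpression comparison and hold no core. HMOX1 and PRDX1, which also fell there, had no promoter entry and were not searched. GCLM, ME1 and TXNRD1 are NRF2 targets with a core whose RNA did not pass the test in any comparison. Elements outside the 250 bases were not searched, and whether a core bears on any change was not tested. They run 5′ to 3′ on the gene's strand, with the core in capitals. The SELENOW stretch stops before the first annotated exon. The TXNRD1 stretch ends where the transcript model TXNRD1-208 starts. More abundant models, such as TXNRD1-205, start near a further entry (chr12:104286782-104287031), which also holds a core and is not shown.
SELENOW, chr19:47778453-47778571, plus strand: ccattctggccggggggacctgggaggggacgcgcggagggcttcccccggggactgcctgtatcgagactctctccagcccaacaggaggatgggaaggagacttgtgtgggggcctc
CAT, chr11:34438684-34438933, plus strand: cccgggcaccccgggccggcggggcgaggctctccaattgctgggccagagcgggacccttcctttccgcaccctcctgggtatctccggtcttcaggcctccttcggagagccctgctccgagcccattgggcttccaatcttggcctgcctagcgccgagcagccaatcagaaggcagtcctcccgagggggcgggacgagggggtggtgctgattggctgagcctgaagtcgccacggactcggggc
GCLM, chr1:93909431-93909680, minus strand: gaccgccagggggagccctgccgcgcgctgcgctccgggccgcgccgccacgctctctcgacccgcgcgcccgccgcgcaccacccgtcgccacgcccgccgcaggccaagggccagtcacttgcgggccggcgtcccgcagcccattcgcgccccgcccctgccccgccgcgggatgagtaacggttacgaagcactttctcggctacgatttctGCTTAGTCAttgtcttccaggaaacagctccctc
ME1, chr6:83431052-83431301, minus strand: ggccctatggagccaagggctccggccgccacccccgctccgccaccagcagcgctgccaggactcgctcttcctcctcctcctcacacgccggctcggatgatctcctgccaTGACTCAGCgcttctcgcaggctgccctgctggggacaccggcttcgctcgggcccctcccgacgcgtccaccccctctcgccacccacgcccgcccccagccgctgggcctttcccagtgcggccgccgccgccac
TXNRD1, chr12:104215529-104215778, plus strand: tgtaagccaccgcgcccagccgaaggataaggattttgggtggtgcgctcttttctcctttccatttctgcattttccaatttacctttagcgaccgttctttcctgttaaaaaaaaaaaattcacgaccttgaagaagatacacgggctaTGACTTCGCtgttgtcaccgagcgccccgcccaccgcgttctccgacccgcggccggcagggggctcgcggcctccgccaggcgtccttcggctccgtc

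The libraries were alike in summed FPKM (fragments normalized to transcript length and sequencing depth), 325877 to 357145 over protein-coding genes. The read depth is unknown; steps among low values put the deepest and the shallowest library a factor of 1.28 apart. On the first principal component (23.1% of the variance) OE_control libraries scored 22.2 to 30.6 and all others -11.3 to -5.9, so every comparison with OE_control rests on libraries that differ from all the rest. IFI6 had 309, 268 and 358 FPKM in OE_IFI6 libraries, against 27.3, 17.9 and 28.8 FPKM in OE_control libraries, a log2 difference of 3.62 (SE 0.17, limma adjusted p = 4.73e-07). It had 15.1, 13.9 and 14.7 FPKM in sh_IFI6 libraries, against 24.9, 24.1 and 21.2 FPKM in sh_control libraries, which did not overlap, but the log2 difference of -0.65 (SE 0.17) did not pass over all genes (limma adjusted p = 0.818). The smallest two-sided p that an exact permutation of 3 against 3 libraries allows is 0.1, and both IFI6 comparisons reached it. Of 11 epithelial markers, 4 or 5 reached 1 FPKM in each library, led by the keratins KRT8 and KRT18 (means of 930 and 439 FPKM); EPCAM, KRT5 and SOX2 were listed at 0 in every library and TP63 averaged 0.101 FPKM, so these epithelial and squamous markers were absent or nearly so from the labelled oesophageal cancer cells. Of 6 fibroblast markers, 4 or 5 reached 1 FPKM in each library, at low levels. COL1A1 averaged 2.14, COL3A1 1.57, DCN 1.53, PDGFRB 1.49 and LUM 1.28 FPKM, and COL1A2 averaged 0.000362 FPKM. Among immune and endothelial markers, CD3E was listed at 0 in every library and PTPRC, LYZ, PECAM1, VWF and CDH5 averaged at most 0.0284 FPKM. The macrophage marker CD68 averaged 1.06 FPKM, just above the mean of 1 FPKM required for testing. It was lower in every OE_IFI6 library than in every OE_control library, as were 9.78% of all genes (log2 difference -0.42, SE 0.18, limma adjusted p = 0.178). The part of CD68 in the comparisons with OE_control was not tested.

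Peroxide-removing enzymes were the most abundant members. FPKM is per length, so levels can be set beside each other between genes. PRDX1, the main cytosolic peroxiredoxin, averaged 1389 FPKM over the 12 libraries and ranked 15 among all coding genes. PRDX4 in the endoplasmic reticulum (478 FPKM), mitochondrial PRDX3 (478 FPKM) and cytosolic PRDX2 (469 FPKM) came next, ahead of thioredoxin itself, TXN (435 FPKM). PRDX6, which uses glutathione, averaged 375 FPKM, and FTH1, the ferritin heavy chain that stores iron, 308 FPKM. The classical NRF2 reporters were lower: NQO1, a quinone reductase, averaged 41.7 FPKM, HMOX1, which breaks down haem, 10.6 FPKM, and GCLC and GCLM, the subunits of the enzyme that limits glutathione synthesis, 10.2 and 8.16 FPKM. NFE2L2 averaged 13.7 FPKM and KEAP1 8.11 FPKM.

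**Figure D1:**
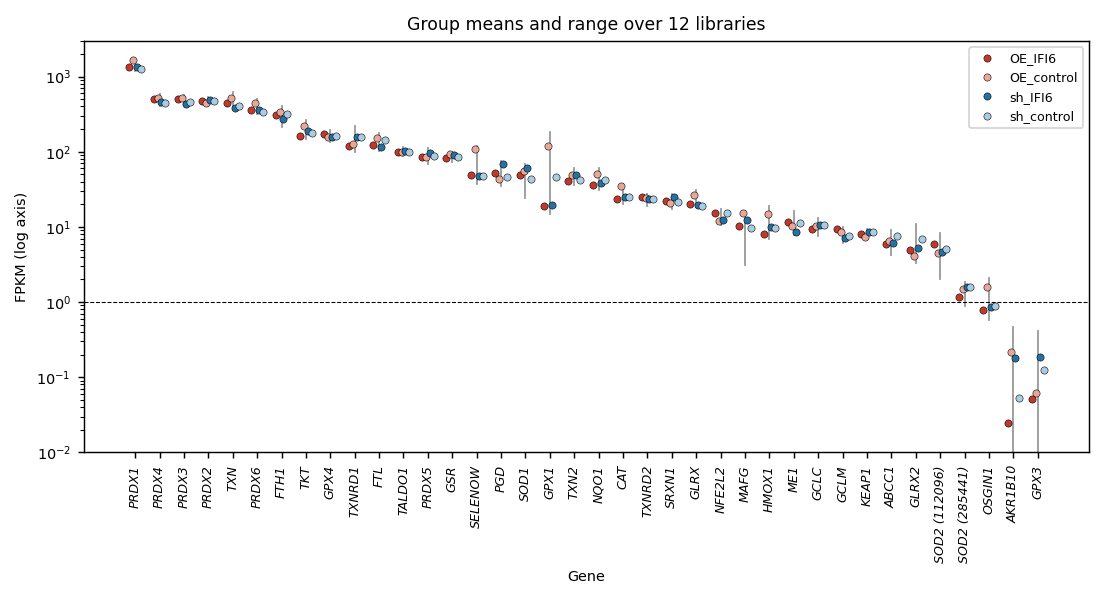
FPKM on a log axis for the members with a mean of at least 0.1 FPKM, ordered by their mean over 12 libraries. Points are group means (n = 3 each), grey lines run from the lowest to the highest library and the dashed line marks the minimum mean of 1 FPKM; GPX1 has the longest line among the tested genes (15.01 to 185 FPKM).

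The plot of members by abundance also shows those at the bottom of the range. A mean of 1 FPKM was required for testing, which 36 rows of 35 symbols reached. OSGIN1, a growth-inhibiting NRF2 target, passed it only through OE_control (means of 0.781 FPKM in OE_IFI6, 1.61 in OE_control, 0.862 in sh_IFI6 and 0.873 in sh_control). The aldo-keto reductases AKR1B10, AKR1C1, AKR1C2 and AKR1C3, which reduce carbonyls and steroids, averaged 0.119, 0.0401, 0.00609 and 0.0874 FPKM and were not tested. The AKR1C genes are near-identical copies, so their split is uncertain. GPX3, the secreted glutathione peroxidase, averaged 0.106 FPKM. GSTP1 (a glutathione transferase), GPX2 (the gut-type glutathione peroxidase) and MSRA (a methionine sulfoxide reductase) were listed at 0 in all 12 libraries. So were 3697 coding genes in all, but 0 of 76 ribosomal protein genes, which every cell uses. This does not tell whether the zeros of GSTP1, GPX2 and MSRA are absent RNA or come from the processing.

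In OE_IFI6 against OE_control, 4 of the 36 tested rows fell and 0 rose: SELENOW, CAT, HMOX1 and PRDX1. Over all 10925 genes tested, 7.66% passed (limma, adjusted p under 0.05), 3.56% downwards and 4.1% upwards. The median log2 difference of the members was -0.13, against 0.05 over all genes, with 23 rows negative and 13 positive. Since the members were chosen with earlier results of these data known, setting their counts and median beside all genes is a description and not a test. In 10 rows all 3 OE_IFI6 libraries lay below all 3 OE_control libraries, and in 2 rows above; over all genes these shares were 9.78% and 13.5%. The 10 rows include OSGIN1, which was tested only because OE_control was high. In these bulk libraries, fewer cells of a kind and less RNA per cell cannot be told apart. Fitted on the 6 compared libraries alone, only SELENOW passed among the members.

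**Figure D2:**
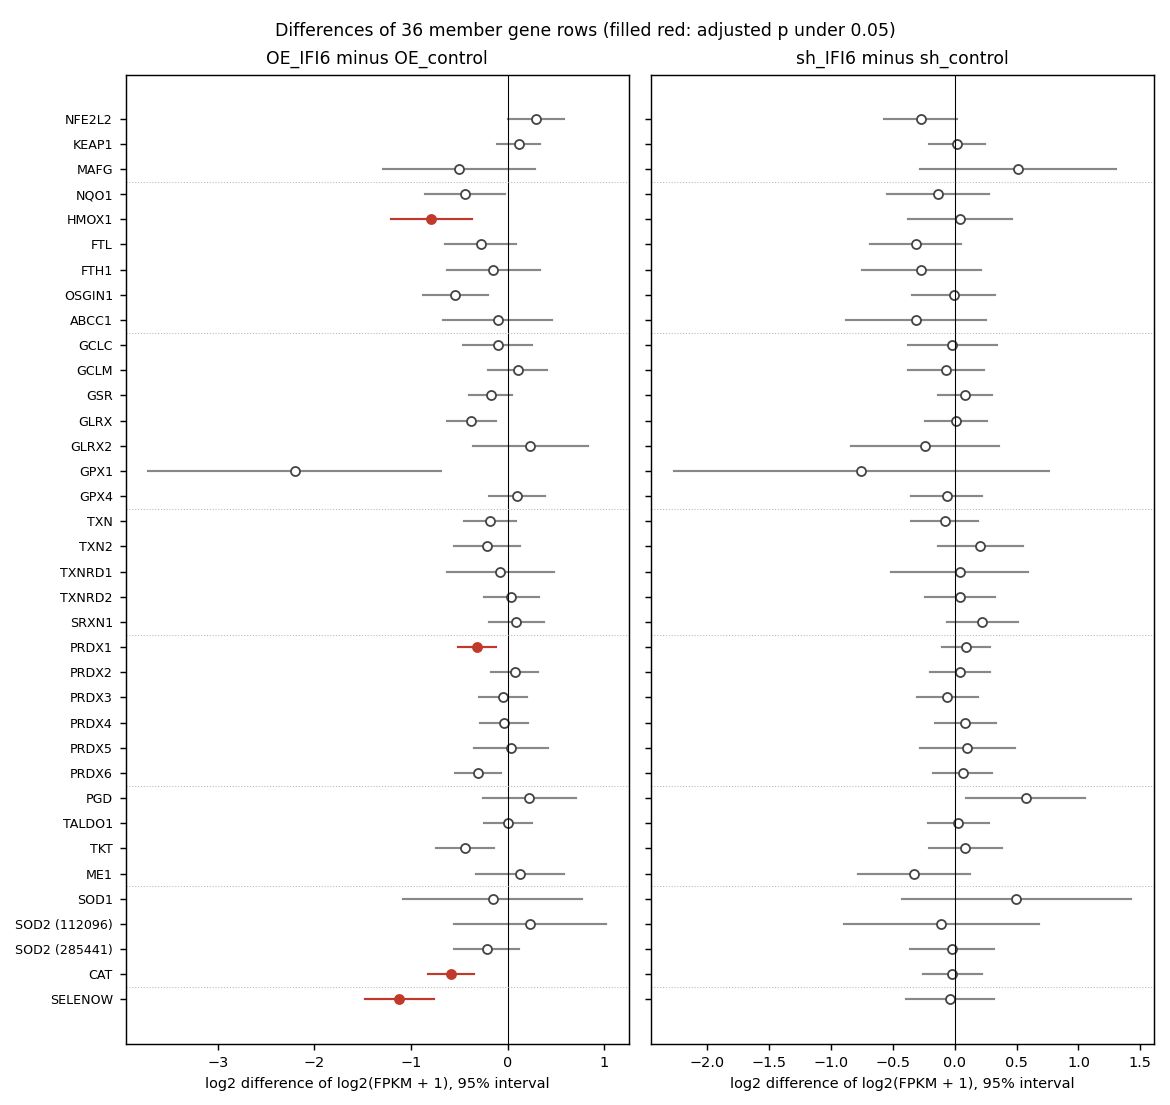
Differences of log2(FPKM + 1) with 95% intervals for the 36 tested rows, ordered by role; OE_IFI6 minus OE_control on the left and sh_IFI6 minus sh_control on the right (n = 3 libraries per group, note the different scales). Filled red points passed: SELENOW, CAT, HMOX1 and PRDX1 on the left and none on the right.

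The regulators of the pathway did not pass in that comparison. NFE2L2 had 14.6, 17.2 and 13.5 FPKM in OE_IFI6 libraries, against 13.1, 12.5 and 10.8 FPKM in OE_control libraries. All OE_IFI6 libraries were above all OE_control libraries, and the log2 difference was 0.29 (SE 0.13, limma adjusted p = 0.215). KEAP1 had 7.93, 8.06 and 7.90 FPKM in OE_IFI6 libraries, against 7.44, 6.87 and 7.59 FPKM in OE_control libraries, again without overlap, at a log2 difference of 0.11 (SE 0.10, limma adjusted p = 0.57). MAFG, the small MAF partner, averaged 10.4 ± 1.21 FPKM in OE_IFI6 and 15.1 ± 1.09 FPKM in OE_control libraries (SD, n = 3 each). Its log2 difference was -0.50 (SE 0.36, limma adjusted p = 0.443); 1 sh_control library at 3.14 FPKM, against 12.7 and 13.5 FPKM in the other two, shares the fit. NFE2L2 and MAFG overlap antisense and neighbouring genes, and it is not known whether strand was used in counting, so their reads may include others.

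Among the targets in haem, iron and quinone handling, HMOX1 fell. It had 6.99, 7.02 and 10.2 FPKM in OE_IFI6 libraries, against 10.7, 14.6 and 19.2 FPKM in OE_control libraries. The highest OE_IFI6 library was just under the lowest OE_control library, and the log2 difference was -0.79 (SE 0.19, limma adjusted p = 0.0289). The call was lost without OE_IFI6 replicate 1 or 2 or OE_control replicate 2 or 3 (adjusted p = 0.0908, 0.0938, 0.064 and 0.092 in limma). NQO1 had 40.2, 32.2 and 36.9 FPKM in OE_IFI6 libraries, against 60.4, 50.5 and 40.1 FPKM in OE_control libraries. These groups overlapped by 1 library each, and the log2 difference of -0.44 (SE 0.19) did not pass (limma adjusted p = 0.181). OSGIN1 had 0.585 to 0.983 FPKM in OE_IFI6 libraries, against 1.195 to 2.11 FPKM in OE_control libraries; since it met the minimum mean only through OE_control, no test is given for it. The ferritin chains FTL and FTH1 and the glutathione conjugate pump ABCC1 had log2 differences of -0.28, -0.15 and -0.10 with overlapping libraries.

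The genes of glutathione synthesis did not pass, and the peroxidase gene GPX1 varied widely within groups. GCLM had 10.1, 9.55 and 8.25 FPKM in OE_IFI6 libraries, against 8.91, 9.16 and 7.69 FPKM in OE_control libraries, with a 95% interval of the log2 difference of -0.21 to 0.41. For GCLC, the catalytic subunit, the interval was -0.46 to 0.25. GPX1, a selenium-dependent glutathione peroxidase, had 18.2, 18.6 and 19.6 FPKM in OE_IFI6 libraries, against 185, 142 and 27.5 FPKM in OE_control libraries. The OE_IFI6 libraries were all lower, but the OE_control libraries spread widely, so the log2 difference of -2.20 carried an SE of 0.69 and did not pass (limma adjusted p = 0.0776). Without OE_control replicate 1 it was -1.69 and did not pass, and without OE_control replicate 3 it was -3.04 and passed (adjusted p = 0.0147 in limma); over all alternatives the adjusted p ran from 0.0147 to 0.224. High values also occurred outside that group: sh_control replicate 1 had 102 FPKM while the other two had 19.5 and 17.9 FPKM. They sat on the transcript model GPX1-204, which held 169, 140 and 21.3 FPKM in OE_control and 98.8 FPKM in sh_control replicate 1.

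GPX4, the selenoenzyme that reduces lipid peroxides, had 172, 147 and 192 FPKM in OE_IFI6 libraries, against 178, 137 and 163 FPKM in OE_control libraries, with overlapping ranges (log2 difference 0.10, SE 0.13). GLRX, cytosolic glutaredoxin, was lower in every OE_IFI6 library (18.9, 22.2 and 20.1 FPKM in OE_IFI6, against 31.3, 23.4 and 26.1 FPKM in OE_control), at a log2 difference of -0.38 (SE 0.12, limma adjusted p = 0.0708). It passed without OE_control replicate 2 (adjusted p = 0.0407 in limma), and over all alternatives the adjusted p ran from 0.0407 to 0.276. GLRX overlaps RHOBTB3 on the other strand. GSR, which regenerates reduced glutathione, and mitochondrial GLRX2 had log2 differences of -0.18 and 0.24 that did not pass.

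None of the 5 thioredoxin-system members passed. TXN had 480, 464 and 396 FPKM in OE_IFI6 libraries, against 614, 438 and 483 FPKM in OE_control libraries. TXNRD1, the cytosolic thioredoxin reductase and a selenoprotein, had 106, 122 and 131 FPKM in OE_IFI6 libraries, against 138, 98.0 and 146 FPKM in OE_control libraries. SRXN1, sulfiredoxin, which repairs overoxidised peroxiredoxins, had 20.1, 23.2 and 23.3 FPKM in OE_IFI6 libraries, against 17.1, 22.8 and 22.8 FPKM in OE_control libraries. In all 3 the libraries of the groups overlapped, and the log2 differences were -0.19 (SE 0.12), -0.08 (SE 0.25) and 0.09 (SE 0.13). The mitochondrial members TXN2 and TXNRD2 stood at -0.22 and 0.04.

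Of the 6 peroxiredoxins, PRDX1 fell. It had 1257, 1294 and 1424 FPKM in OE_IFI6 libraries, against 1676, 1676 and 1600 FPKM in OE_control libraries, a log2 difference of -0.32 (SE 0.09, limma adjusted p = 0.0494). All OE_IFI6 libraries were lower, but the call sat at the threshold and was lost in 11 of 16 alternatives. It was lost without OE_IFI6 replicate 1 or 2 (adjusted p = 0.138 and 0.13 in limma) and without OE_control replicate 1, 2 or 3 (0.0967, 0.0791 and 0.0908). PRDX6 was also lower in every library (321 to 390 FPKM in OE_IFI6, against 409 to 503 FPKM in OE_control; log2 difference -0.31, limma adjusted p = 0.111). The others, PRDX2, PRDX3, PRDX4 and mitochondrial and peroxisomal PRDX5, lay between -0.05 and 0.07 with overlapping libraries.

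The members of NADPH supply did not pass. TKT, transketolase of the pentose phosphate pathway, was lower in every library (150 to 178 FPKM in OE_IFI6, against 188 to 262 FPKM in OE_control; log2 difference -0.44, SE 0.14, limma adjusted p = 0.0703). It passed without OE_control replicate 2 (adjusted p = 0.042 in limma), and over all alternatives the adjusted p ran from 0.0366 to 0.225. PGD, which makes NADPH in the same pathway, TALDO1, transaldolase, and ME1, cytosolic malic enzyme, had log2 differences of 0.22, 0.00 and 0.13 with overlapping libraries.

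Of the enzymes that remove superoxide and hydrogen peroxide, catalase fell. CAT had 20.2, 25.4 and 24.7 FPKM in OE_IFI6 libraries, against 34.2, 37.2 and 34.97 FPKM in OE_control libraries. The groups were well apart, and the log2 difference was -0.58 (SE 0.11, limma adjusted p = 0.00825). It held in 15 of 16 alternatives and was lost in the fit of the 6 compared libraries alone (adjusted p = 0.104 in limma). The cytosolic superoxide dismutase SOD1 varied more within groups than between them, with 24.02, 63.4 and 59.2 FPKM in OE_IFI6 libraries, against 26.0, 69.4 and 69.6 FPKM in OE_control libraries. Replicate 1 was the lowest library in OE_IFI6 and OE_control, and also in sh_IFI6 and sh_control. Mitochondrial SOD2 is split between 2 overlapping rows. The row ENSG00000112096 had 2.04, 7.44 and 8.38 FPKM in OE_IFI6 libraries, against 2.93, 4.66 and 5.71 FPKM in OE_control libraries, and the row ENSG00000285441 had 1.51, 0.873 and 1.12 FPKM in OE_IFI6, against 1.70, 1.36 and 1.449 FPKM in OE_control libraries. The rows gave log2 differences of 0.23 and -0.22, neither of which passed, and their split is uncertain.

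The change of smallest p among the members was in SELENOW, selenoprotein W, a small thioredoxin-fold protein whose RNA is known to respond to selenium supply (chromosome 19, 47778585 to 47784686, plus strand). It had 57.5, 52.0 and 39.3 FPKM in OE_IFI6 libraries, against 118.8, 108.5 and 96.7 FPKM in OE_control libraries. The means were 49.6 ± 9.35 and 108 ± 11.1 FPKM (SD, n = 3 each), with no overlap. The log2 difference was -1.12 (SE 0.16, limma adjusted p = 0.00187), and it passed in all 16 alternatives run for this gene (adjusted p from 0.00162 to 0.0204).

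**Figure D3:**
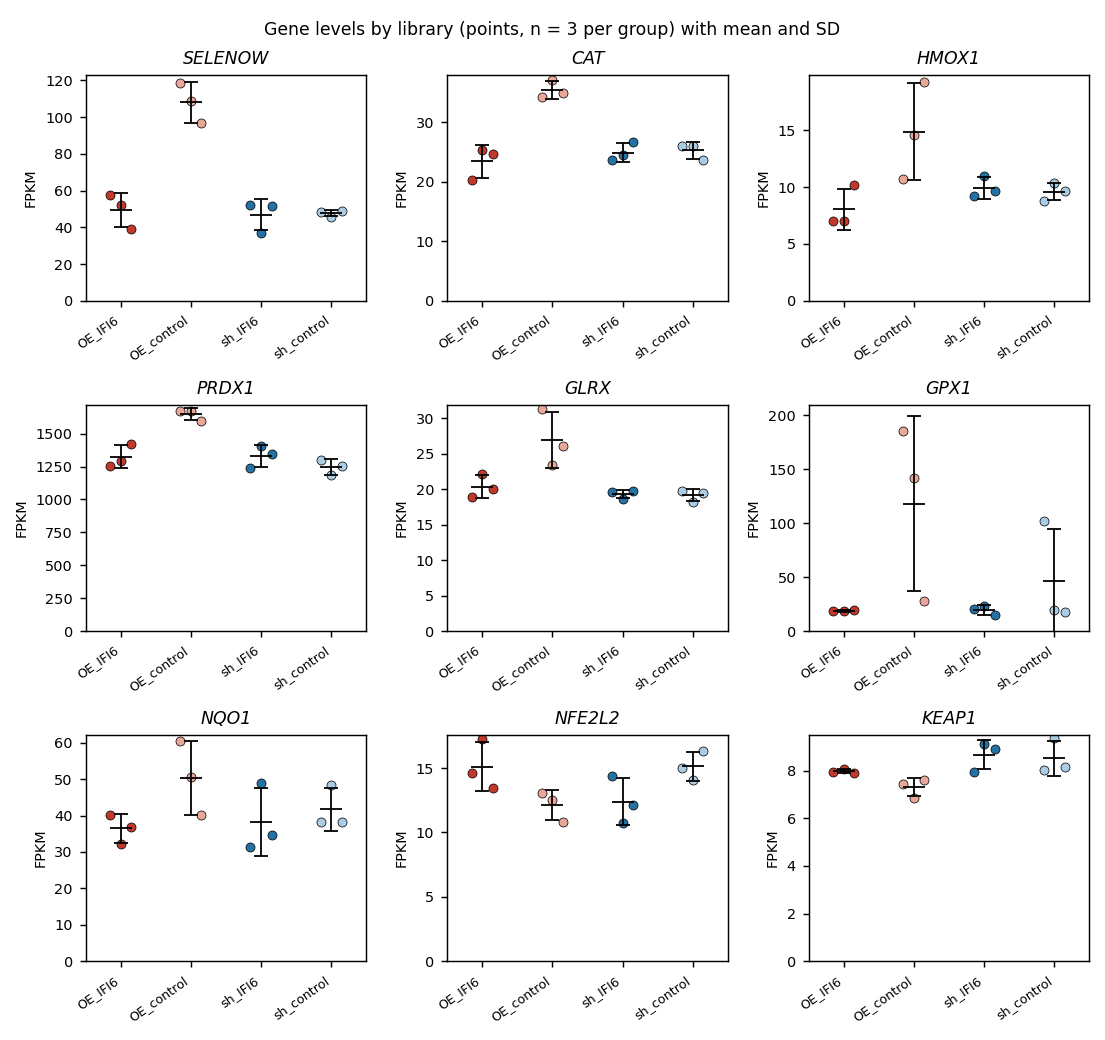
FPKM of 9 members in every library (points), with the mean and SD of each group (n = 3 each), on axes that start at 0. In SELENOW, CAT and PRDX1 the OE_IFI6 points lie beside those of sh_IFI6 and sh_control, and the OE_control points lie above. In HMOX1 the OE_control mean is highest, but its lowest OE_control library (10.73 FPKM) lies below the highest sh_IFI6 library (10.95 FPKM). KEAP1 and NFE2L2 show no such step up.

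The plot of single-gene levels shows where OE_control sat. SELENOW had 52.1, 37.0 and 51.7 FPKM in sh_IFI6 libraries, against 48.3, 45.8 and 49.1 FPKM in sh_control libraries, so 9 of 12 libraries lay between 37.0 and 57.5 FPKM. CAT had 23.6, 24.4 and 26.7 FPKM in sh_IFI6 libraries, against 26.1, 26.1 and 23.7 FPKM in sh_control libraries. PRDX1 had 1238, 1409 and 1346 FPKM in sh_IFI6 libraries, against 1303, 1184 and 1255 FPKM in sh_control libraries. HMOX1 had 9.18, 10.9 and 9.61 FPKM in sh_IFI6 libraries, against 8.79, 10.3 and 9.67 FPKM in sh_control libraries. In each of these genes the sh_IFI6 and sh_control libraries overlapped. The group means of HMOX1, for example, were 8.05 ± 1.82 FPKM in OE_IFI6, 14.8 ± 4.26 FPKM in OE_control, 9.91 ± 0.925 FPKM in sh_IFI6 and 9.59 ± 0.765 FPKM in sh_control (SD, n = 3 each).

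With hairpins against IFI6, none of the 36 rows passed, as 0% of all genes did. At an unadjusted p under 0.05, 1 member row (PGD) was found, against 5.15% of all genes. The median log2 difference of the members was 0.00, as over all genes (0.01). PGD had 67.5, 61.9 and 74.4 FPKM in sh_IFI6 libraries, against 50.2, 49.6 and 37.0 FPKM in sh_control libraries. All sh_IFI6 libraries were higher, at a log2 difference of 0.57 (SE 0.22, limma adjusted p = 0.818). In 5 rows the libraries did not overlap (PGD, SRXN1 and TXN2 higher in sh_IFI6, ME1 and TXN lower), against 19.1% of all genes (9.46% higher and 9.61% lower). NFE2L2 had 14.3, 10.7 and 12.1 FPKM in sh_IFI6 libraries, against 14.98, 14.1 and 16.4 FPKM in sh_control libraries, and KEAP1 had 7.96, 9.12 and 8.92 FPKM in sh_IFI6, against 8.04, 9.37 and 8.15 FPKM in sh_control. NFE2L2 overlapped by 1 library, and its log2 difference was -0.27 (SE 0.13).

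The other members with a value in every library behaved likewise under the hairpins. NQO1 had 31.4, 48.9 and 34.6 FPKM in sh_IFI6 libraries, against 38.3, 48.4 and 38.3 FPKM in sh_control libraries, and GCLM had 6.07, 7.37 and 8.03 FPKM in sh_IFI6, against 7.05, 6.70 and 8.99 FPKM in sh_control. TXNRD1 had 126, 134 and 216 FPKM in sh_IFI6 libraries, against 122, 126 and 217 FPKM in sh_control libraries, with the third library high in both groups. SRXN1 had 23.7, 27.5 and 24.6 FPKM in sh_IFI6, against 19.8, 21.4 and 23.2 FPKM in sh_control, higher in every sh_IFI6 library (log2 difference 0.22, SE 0.13). TXN had 389, 373 and 380 FPKM in sh_IFI6 libraries, against 398, 400 and 409 FPKM in sh_control libraries, lower in every sh_IFI6 library by a small step (log2 difference -0.08, SE 0.12). GPX4 had 176, 150 and 142 FPKM in sh_IFI6 libraries, against 155, 169 and 164 FPKM in sh_control libraries, and GLRX had 19.6, 18.6 and 19.7 FPKM in sh_IFI6, against 19.7, 18.2 and 19.5 FPKM in sh_control. SOD1 had 50.7, 67.8 and 61.5 FPKM in sh_IFI6 libraries, against 29.7, 40.7 and 60.7 FPKM in sh_control libraries, overlapping by 1 library. SOD2 row ENSG00000112096 had 5.34, 5.01 and 3.72 FPKM in sh_IFI6, against 4.09, 5.54 and 5.76 FPKM in sh_control, and row ENSG00000285441 had 1.87, 1.85 and 1.03 FPKM in sh_IFI6, against 1.46, 1.64 and 1.68 FPKM in sh_control.

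Whether a gene responded differently to overexpression and knockdown was tested as the difference of both effects. SELENOW alone passed among the members, downwards, at -1.08 (SE 0.23, limma adjusted p = 0.0318); over all genes 2.69% passed, 1.51% downwards and 1.18% upwards. The effect was -1.12 with overexpression and -0.04 with the hairpin. IFI6 itself changed far more with overexpression (log2 difference 3.62) than with the hairpin (-0.645, not passing). The difference of effects does not allow for this. The call was lost in 9 of 21 alternatives (adjusted p up to 0.083): under quantile normalization (0.0668) and without OE_IFI6 replicate 2 (0.0559), OE_control replicate 1 or 2 (0.0658 and 0.0553), sh_IFI6 replicate 1 or 3 (0.0738 and 0.083) or sh_control replicate 1, 2 or 3 (0.0726, 0.0821 and 0.0677), all in limma. For CAT, HMOX1 and PRDX1 this difference did not pass.

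The control vectors were compared with each other, since both come from the same line and neither targets IFI6. In OE_control against sh_control, 4 of 36 rows rose and 0 fell: SELENOW, CAT, PRDX1 and GLRX. Over all genes 7.52% passed, 2.75% upwards and 4.78% downwards; this split (300 higher, 522 lower) turned to 471 higher and 368 lower under median-of-ratios scaling and to 378 and 330 under quantile normalization. The log2 differences were 1.16 for SELENOW (SE 0.16, limma adjusted p = 0.00167), 0.47 for CAT (SE 0.11, 0.0238), 0.40 for PRDX1 (SE 0.09, 0.0184) and 0.46 for GLRX (SE 0.12, 0.0337). HMOX1 stood at 0.55 (SE 0.19, limma adjusted p = 0.109) with no overlap between the groups, and passed without OE_control replicate 1 (0.0413; range over all alternatives 0.0413 to 0.279). In 13 rows the libraries did not overlap, 11 of them higher in OE_control, against 30.4% of all genes (10.1% higher and 20.3% lower); OSGIN1 was again among the higher ones, and NFE2L2 and KEAP1 were the 2 lower ones (log2 differences -0.30 and -0.20, neither passing). The median of the members was 0.11, against -0.09 over all genes.

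Only SELENOW passed in all 16 alternatives of the control comparison. CAT was lost without OE_control replicate 2 or 3 (limma adjusted p = 0.0565 and 0.0583) and without sh_control replicate 1, 2 or 3 (0.0596, 0.0694 and 0.0945), and with the compared libraries alone (0.052). PRDX1 was lost without sh_control replicate 2 or 3 (0.0842 and 0.0621), under quantile normalization (0.274), with no filter on low values (0.0609) and with the compared libraries alone (0.0645). GLRX was lost without OE_control replicate 1 or 3 (0.103 and 0.0719) and without sh_control replicate 1, 2 or 3 (0.0806, 0.123 and 0.0895), and with the compared libraries alone (0.0934).

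**Figure D4:**
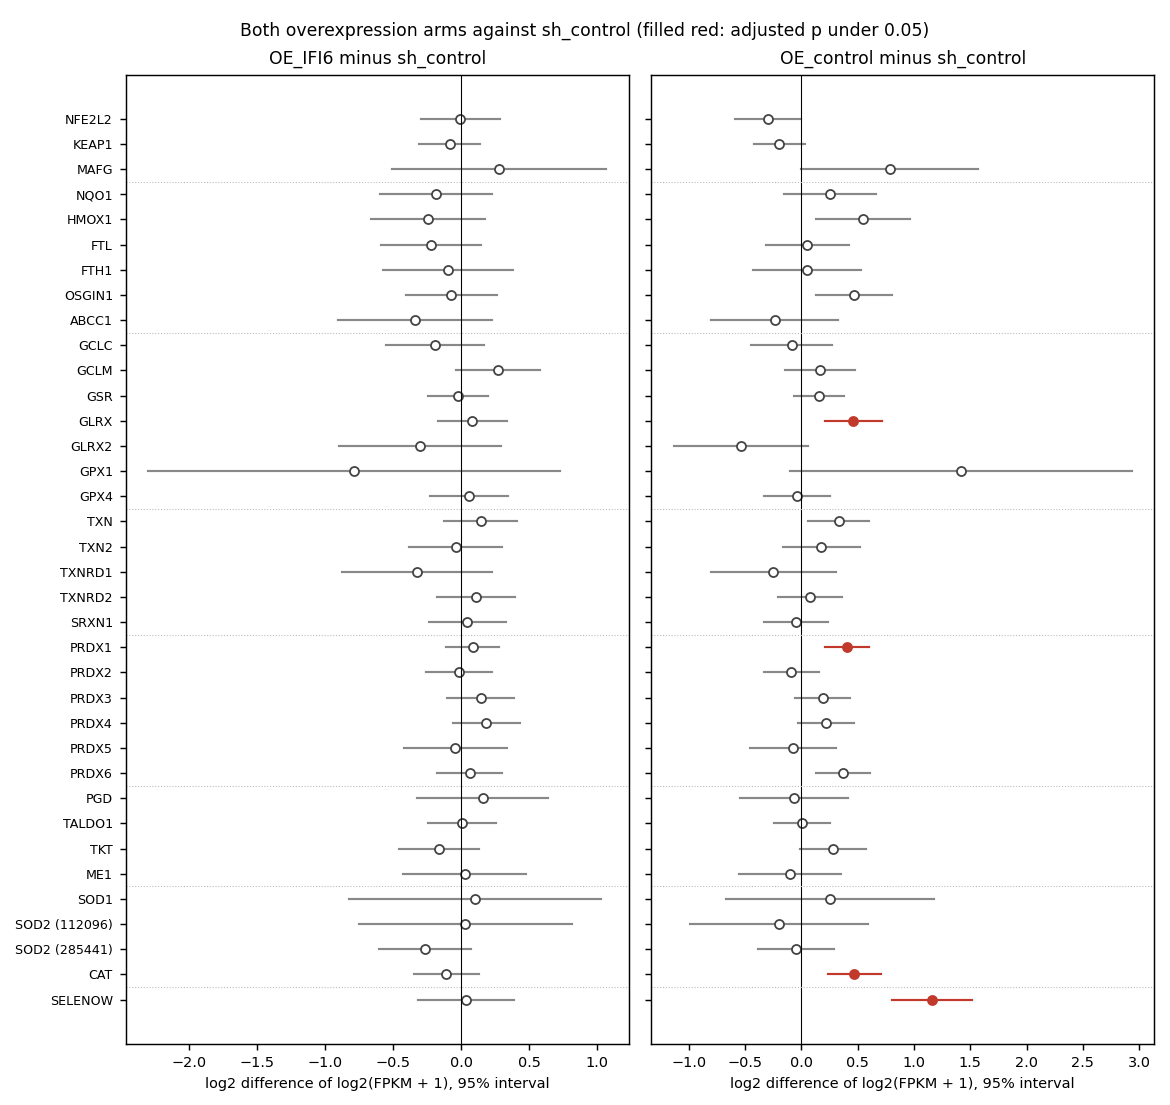
Differences of log2(FPKM + 1) with 95% intervals for the same 36 rows, OE_IFI6 minus sh_control on the left and OE_control minus sh_control on the right (n = 3 libraries per group, note the different scales). Filled red points passed: none on the left, and SELENOW, CAT, PRDX1 and GLRX on the right.

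The plot of both overexpression groups against sh_control places the IFI6 vector beside the control hairpin. In OE_IFI6 against sh_control, 0 of 36 rows passed and 0 had an unadjusted p under 0.05, against 0.0183% and 4.6% of all genes. SELENOW differed by 0.04 (95% interval -0.32 to 0.39), CAT by -0.11 (-0.35 to 0.13), HMOX1 by -0.24 (-0.66 to 0.18) and PRDX1 by 0.09 (-0.11 to 0.28) on the log2 scale. The libraries of every member row overlapped, whereas they did not in 9.54% of all genes (3% higher and 6.54% lower in OE_IFI6). These comparisons share libraries with those above and are not independent of them. OE_IFI6 and sh_control also differ in vector type, so vector and insert cannot be told apart here.

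The deposited transcript values show on which models these gene values rest. Of 76 member transcripts tested in 34 genes, 1 passed in OE_IFI6 against OE_control, CAT-201, which fell; over all 17030 coding transcripts 1.73% passed. CAT-201, the full-length coding model, held 88.8% to 95.8% of the gene in every library, with 19.2, 23.2 and 22.7 FPKM in OE_IFI6 libraries, against 32.6, 35.2 and 33.5 FPKM in OE_control libraries. The groups did not overlap (log2 difference -0.62, limma adjusted p = 0.0289). Without OE_IFI6 replicate 1 or OE_control replicate 1, 2 or 3, 0 member transcripts passed. CAT-201 also rose in OE_control against sh_control (log2 difference 0.55, limma adjusted p = 0.043), where 1.54% of transcripts passed. With the hairpin, 0 member transcripts passed, against 0.0235% of all. None passed in the difference of the effects or in OE_IFI6 against sh_control either, against 0.528% and 0.0411% of all.

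**Figure D5:**
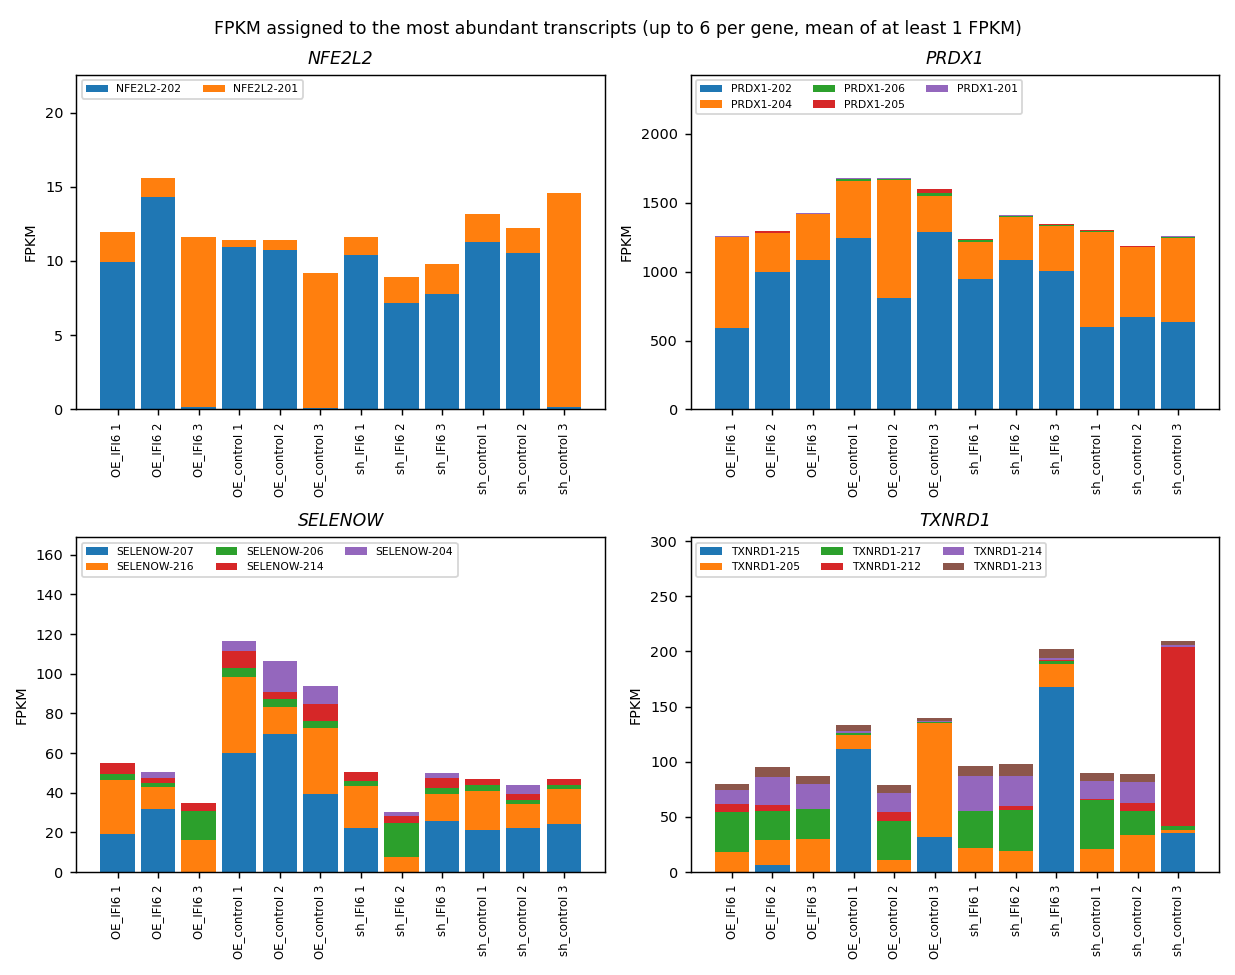
FPKM assigned to the most abundant transcript models of NFE2L2, PRDX1, SELENOW and TXNRD1, stacked for each of the 12 libraries. NFE2L2-202 and NFE2L2-201 change places in replicate 3 of OE_IFI6, OE_control and sh_control, and TXNRD1-215 or TXNRD1-212 take over single libraries.

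Much of the SELENOW value sat on models annotated as retained introns, mainly SELENOW-207, which held 19.4, 31.7 and 0 FPKM in OE_IFI6 libraries, against 60.1, 69.6 and 39.2 FPKM in OE_control libraries. Summed over models annotated as coding, SELENOW had 27.0, 14.6 and 18.7 FPKM in OE_IFI6 libraries, against 43.2, 29.2 and 42.8 FPKM in OE_control libraries. The coding sums did not overlap either, and they made up 28.0% to 47.6% of the gene in OE_IFI6 and 26.9% to 44.3% in OE_control libraries. In sh_IFI6 the coding sums were 21.4, 13.7 and 16.1 FPKM, against 20.0, 16.7 and 17.9 FPKM in sh_control libraries.

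In NFE2L2 the models differ in their first exon and coding start. NFE2L2-201 held 13.9%, 7.13% and 85.1% of the gene in OE_IFI6 libraries, against 3.42%, 5.48% and 83.3% in OE_control libraries. In sh_IFI6 libraries it held 8.58%, 16.7% and 17.1%, against 12.8%, 12.2% and 88.1% in sh_control libraries. The switch followed single libraries in 3 groups and not a condition, and the gene total did not follow it. The models of TXNRD1 also changed with single libraries. TXNRD1-215 held 111 FPKM in OE_control replicate 1 and 168 FPKM in sh_IFI6 replicate 3 but 0 FPKM in 6 libraries. TXNRD1-212 held 162 FPKM in sh_control replicate 3. The highest TXNRD1 gene values, 216 and 217 FPKM, came from replicate 3 of sh_IFI6 and of sh_control. Unlike in NFE2L2, the gene total was thus highest in libraries with such a change. PRDX1 was divided between PRDX1-202 and PRDX1-204, whose shares ranged from 46.0% to 80.3% and from 16.3% to 52.9%, while the gene total stayed within 1184 to 1676 FPKM.

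Other genes of the pathway, in lists that hold no member, moved in both directions when OE_IFI6 was set against OE_control. Of 33 tested further NRF2 targets, 1 rose (ALDH3A1, an aldehyde dehydrogenase, log2 difference 0.48) and 2 fell (ABCG2, a drug efflux pump, -0.44, and IDH1, a cytosolic NADPH source, -0.60). Of 17 NRF2 partners and repressors, 1 fell, the small MAF gene MAFK (-0.90). Of 39 other thioredoxin, glutathione and peroxide genes, 3 rose (TXNRD3 0.66, MSRB2 0.53 and SESN3 0.78) and 3 fell (SESN2 -1.17, CHAC1 -1.27 and TXNDC12 -0.54). SESN2 and CHAC1, a glutathione-degrading enzyme, are known targets of ATF4. Of 20 other listed selenoprotein and selenocysteine genes besides SELENOW, 1 fell, SARS (-0.51), which charges tRNA with serine. That list does not hold every selenoprotein gene: TXNRD3, counted above, is not in it. Of 18 further genes listed for NADPH supply, whose cofactor use was not examined, 1 rose (ME2 0.73) and 1 fell (IDH1, counted above as well). These shares stand beside the 7.66% of all genes that passed. In sh_IFI6 against sh_control, 0 genes of these lists passed, as 0% of all genes did. In OE_IFI6 against sh_control 0 of them passed, against 0.0183% of all genes. In OE_control against sh_control, 7.52% of all genes passed, 2.75% upwards and 4.78% downwards. Of the 33 further NRF2 targets, 2 rose and 2 fell there. Of the 39 other thioredoxin, glutathione and peroxide genes, 3 rose and 3 fell. Among the 20 other selenoprotein genes 1 rose, as did 1 of the 18 genes listed for NADPH supply, and 0 of the 17 partners and repressors passed. ABCG2 (log2 difference 0.56), IDH1 (0.65), CHAC1 (1.11) and SESN2 (1.05) rose there, and ALDH3A1 (-0.68), TXNRD3 (-0.58) and SESN3 (-0.77) fell; both comparisons use the OE_control libraries.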

How the data were processed

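The authors deposited gene and transcript values in FPKM. Per the submitters' processing notes, their tools included HISAT2, Cuffdiff, StringTie and edgeR, with no version or role named; the build, the annotation and any use of strand were not given in the sources used here. Of 19771 coding genes, 19720 matched GENCODE release 29 (GRCh38) by identifier, 19699 with overlapping coordinates. No read counts were used: only 10.0% to 22.3% of low values lay within 1% of a whole step, so reads were not recovered. Limma 3.58.1 (R 4.3.3, data.table, version 1.17.8) fitted log2(FPKM + 1) for 10925 coding genes averaging 1 FPKM or more, as 1 group-means model with trended prior variance on 12 libraries (8 residual degrees of freedom). Tests were two-sided, with Benjamini-Hochberg adjustment over all genes; rose and fell mean adjusted p under 0.05. Differences on this scale understate changes of genes near 1 FPKM. Groups came from sample titles.

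Members and lists were chosen with earlier results of these data known. Per-library values are given for members that passed in any comparison and for a set list (NFE2L2, KEAP1, NQO1, HMOX1, GCLM, TXNRD1, SRXN1, TXN, SELENOW, SOD1, SOD2, CAT, GPX4, PRDX1); GPX1, PGD, TKT, PRDX6, MAFG and OSGIN1 were picked out after their values were seen. From other lists, genes that passed are named. Alternatives were other pseudocounts, filters, scalings, priors and gene tables, the compared libraries alone, the replicate number as a block, and leaving out each library. A marker gene of the lists is not reported here.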

Additional observations from a re-analysis of the deposited data

Results flagged for a closer look

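For SELENOW, the effect of overexpression less that of knockdown was -1.08 on the log2 scale (SE 0.23, limma adjusted p = 0.0318). This call was lost in 9 of 21 alternatives (adjusted p up to 0.083). SELENOW was lower in 3 of 3 OE_IFI6 libraries than in every OE_control library, while the sh_IFI6 and sh_control libraries overlapped. Since OE_control was also above sh_control by 1.16, the IFI6 level and the state of the OE_control libraries cannot be told apart for this gene.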

How the results depend on the processing

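No called member changed direction under any alternative run. With only the compared libraries fitted, 1 member passed in OE_IFI6 against OE_control (SELENOW) and 1 in OE_control against sh_control, and 167, 1, 429 and 5 genes overall passed in OE_IFI6 against OE_control, sh_IFI6 against sh_control, OE_control against sh_control and OE_IFI6 against sh_control. In the last, 2 genes passed as reported, 1 with a minimum mean of 5 FPKM and 4 in the table of all annotated genes. For the difference of effects, median-of-ratios scaling gave 2 members (CAT and SELENOW) and quantile normalization 0. Leaving out each library gave 2 to 4 members and 505 to 860 genes in OE_IFI6 against OE_control, 0 to 1 members and 124 to 518 genes for the difference of effects, 1 to 4 members and 321 to 769 genes in OE_control against sh_control, 2 to 5 genes in OE_IFI6 against sh_control, 0 to 1 genes in sh_IFI6 against sh_control and 0 to 1 member transcripts in OE_IFI6 against OE_control. With the replicate number as a block, 5 members passed in OE_IFI6 against OE_control (PRDX1 lost at adjusted p = 0.0728, GPX1 and TKT gained at 0.0465 and 0.0366 in limma), GLRX was lost in OE_control against sh_control (0.0506) and 0 member transcripts passed. The labels do not say that numbers pair libraries: deviations of same-numbered libraries correlated at 0.087, 0.254 and 0.124 between OE_IFI6 and OE_control, each highest with its own number, and at -0.043, -0.01 and -0.034 between sh_IFI6 and sh_control. The cause of these shifts was not tested. Depth is unknown, which limits values near 1 FPKM most, and overlapping or near-identical genes may share reads.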
